A study of Mus musculus with 11 samples.

Results

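The genes described here handle iron in cells: ceruloplasmin (Cp) and 9 others that oxidize, export, store, take up or move iron or release it from haem. They were selected by gene symbol, as the rows of the expression table whose RefSeq accession belongs to Cp, Heph, Slc40a1, Fth1, Ftl1, Tfrc, Slc11a2, Slc11a1, Slc25a37 or Hmox1. All 10 genes had a row among the 21878 rows of the table. These genes were chosen by the measured PCOS-minus-control difference of Cp, with those of other genes also known, so values of PCOS against control hearts are given for these 10 genes as a description with no test. At a mean of at least 1 FPKM over all samples, 9 of the 10 genes entered the fit across all rows, and Heph did not.

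Iron is toxic when free, so cells take it up bound to transferrin through the transferrin receptor, store it inside shells of ferritin heavy and light chains, and release it through the exporter ferroportin, after which a copper-carrying ferroxidase oxidizes it so that transferrin can bind it. Iron regulatory proteins bind a short hairpin, the iron-responsive element, when iron is scarce: in the 5′ UTR of ferritin and ferroportin mRNAs this blocks translation, and in the 3′ UTR of the transferrin receptor mRNA it protects the mRNA from decay. Heart muscle uses much iron for myoglobin, cytochromes and iron-sulphur proteins, and both iron lack and iron overload are known to harm it.

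RNA was measured by sequencing in hearts of female mice that had received anti-Müllerian hormone (AMH) before birth, which induces polycystic ovary syndrome (PCOS) (5 samples), and in hearts of female control mice given vehicle, phosphate-buffered saline (PBS), before birth (6 samples). The labels give the wild-type genotype for all 11 samples. Strain, age, and the dose and days of treatment are not given in the labels used here, nor whether each sample is 1 mouse, several pooled mice or a part of the heart. A p-value here thus sets a difference against the spread among samples, and part of that spread may be technical. Levels are in FPKM (fragments for each kilobase of a transcript's length, relative to the total of the library), so they can be compared between genes of different length. A difference is the PCOS mean less the control mean of log2(FPKM + 1), a scale that makes changes of low genes look smaller.

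Heart muscle markers were abundant in all libraries, and control replicate 6 also held liver transcripts. The 8 cardiomyocyte markers, led by myoglobin (Mb), summed to 52017.0 to 57340.5 FPKM in PCOS hearts and 46540.5 to 55361.1 FPKM in control hearts. The 16 hepatocyte markers, led by albumin (Alb), summed to 14.2 to 19.1 FPKM in PCOS hearts, 8.75 to 26.0 FPKM in control replicates 1 to 5 and 2143.8 FPKM in control replicate 6. All 16 were highest in that library, none was at 0 in every library, and 9 stayed under 1 FPKM in each of the other 10. Across rows, its median Pearson correlation with the other libraries was 0.962, against 0.987 to 0.993 for each of the others. Differences are therefore given with and without control replicate 6. Reads over the listed genes ranged from 11866474 to 14346772 per library.

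Hairpins that fit the iron-responsive element were searched for, because the best-known control of this pathway by iron acts through them. The search covered coding transcripts of the 10 genes in the basic set of GENCODE M21 (GRCm38). The pattern, on the sense strand of the mRNA, was a C, any 5 bases, the loop CAGTGN and 5 bases that pair with the 5 before the loop, with G opposite T allowed. It was found in 4 of the 10 genes. Each sequence below is 30 bases long and is written 5′ to 3′ in DNA letters, with the bulged C and the 6 bases of the loop in capitals.
Fth1 5′ UTR, chr19:9982732-9982761, plus strand: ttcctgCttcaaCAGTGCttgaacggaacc
Ftl1 5′ UTR, chr7:45459778-45459807, minus strand: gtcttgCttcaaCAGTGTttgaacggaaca
Slc40a1 5′ UTR, chr1:45925464-45925493, minus strand: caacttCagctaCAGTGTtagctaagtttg
Tfrc 3′ UTR, hairpin 1, chr16:32631219-32631248, plus strand: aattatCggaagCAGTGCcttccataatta
Tfrc 3′ UTR, hairpin 2, chr16:32631598-32631627, plus strand: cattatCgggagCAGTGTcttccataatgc
Tfrc 3′ UTR, hairpin 3, chr16:32631663-32631692, plus strand: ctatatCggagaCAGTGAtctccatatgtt
Tfrc 3′ UTR, hairpin 4, chr16:32631710-32631739, plus strand: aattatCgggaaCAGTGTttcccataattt

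Both ferritin hairpins have the same 5 bases on each side of the loop. The hairpin was present in 3 of 3 Fth1 transcripts, 1 of 2 Ftl1 transcripts, 1 of 1 Slc40a1 transcript and 1 of 2 Tfrc transcripts. Over all genes with a coding transcript in that set, 28 of 22500 (0.124%) held the pattern in a 5′ UTR and 128 (0.569%) in a 3′ UTR. The pattern was not found in Cp, Heph, Slc11a2, Slc11a1, Slc25a37 or Hmox1, which says only that these letters are not in the transcripts searched. An element with an extra or unpaired base among the 5 pairs next to the loop would be missed, so these genes may still carry one. The table holds 1 value per gene, so the expression data do not separate transcripts with the hairpin from those without it, and mRNA levels do not show translation.

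Ceruloplasmin mRNA was lower in PCOS hearts, and the other ferroxidase and the exporter overlapped between the groups. Cp encodes the copper-carrying ferroxidase of plasma, made mainly by liver, which also exists as a membrane-anchored form. Its row, XM_011249655.2, lies at chr3:19956933-20009750 (GRCm38) and was matched through another version of that accession. Cp was at 11.8, 12.6, 12.2, 13.8 and 14.3 FPKM in PCOS replicates 1 to 5, against 14.9, 15.9, 15.4, 16.6, 18.9 and 19.2 FPKM in control replicates 1 to 6. All PCOS samples were below all controls, and the highest PCOS value, 14.3 FPKM, was close to the lowest control value, 14.9 FPKM. The mean was 12.9 ± 1.05 FPKM in PCOS hearts (SD, n = 5) and 16.8 ± 1.83 FPKM in control hearts (SD, n = 6), a ratio of 0.77 and a log2 difference of −0.35 (SE 0.08). Without control replicate 6 the control mean was 16.3 ± 1.56 FPKM (SD, n = 5) and the difference −0.31 (SE 0.07), again with no overlap. As background, 27 of 10891 tested rows (0.248%) had all PCOS samples below all controls, and 1.85% did so without control replicate 6, but Cp was put on the list for this difference and nothing is read from it.

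Cp rested on 1160 to 1793 reads per library. Control replicate 6, the library with liver transcripts, was the highest for Cp, at 19.2 FPKM, only slightly above control replicate 5 at 18.9 FPKM. In the other 10 libraries the hepatocyte marker sum overlapped between the groups, at 14.2 to 19.1 FPKM in PCOS hearts and 8.75 to 26.0 FPKM in control hearts, with the highest value in control replicate 5. Most of this sum came from Trf, at 3.73 to 12.5 FPKM, and Ahsg, at 1.41 to 4.23 FPKM. Alb was at 1.06 FPKM in control replicate 5 and at most 0.307 FPKM in the rest of these libraries. Apoa1 and Apoa2 were instead highest in control replicate 3, at 2.5 and 1.43 FPKM. The part of liver transcripts in the Cp values of single libraries was not tested. In bulk tissue, fewer cells that express a gene and less RNA per cell cannot be told apart.

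Heph encodes hephaestin, the membrane-bound ferroxidase best known from the gut. Its row, NM_010417.2, lies at chrX:96455436-96574485. Heph was at 0.312, 0.411, 0.364, 0.597 and 0.504 FPKM in PCOS replicates 1 to 5 and at 0.49, 0.814, 0.606, 0.227, 0.611 and 0.669 FPKM in control replicates 1 to 6. The groups overlapped, and the lowest and the highest sample were both controls. These levels stood for only 17 to 67 reads per library. In the fit with no filter the difference was −0.12 (SE 0.09). The third ferroxidase of the family, Hephl1, reached at most 0.0158 FPKM in any library.

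Slc40a1 encodes ferroportin, the only iron exporter known in mammals (NM_016917.2, chr1:45908070-45926532). It was at 6.57, 7.11, 8.42, 8.05 and 8.16 FPKM in PCOS replicates 1 to 5 and at 9.14, 7.88, 10.5, 8.14, 7.5 and 6.51 FPKM in control replicates 1 to 6. Both the lowest and the highest value were control samples, so the groups overlapped. The mean was 7.66 ± 0.785 FPKM in PCOS hearts (SD, n = 5) and 8.29 ± 1.4 FPKM in control hearts (SD, n = 6), with a difference of −0.09 (SE 0.10), or −0.15 (SE 0.09) without control replicate 6. The ratio of Cp to Slc40a1 was 1.7 ± 0.144 in PCOS hearts and 2.1 ± 0.556 in control hearts, or 1.93 ± 0.41 without control replicate 6, and the groups overlapped.

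**Figure D1:**
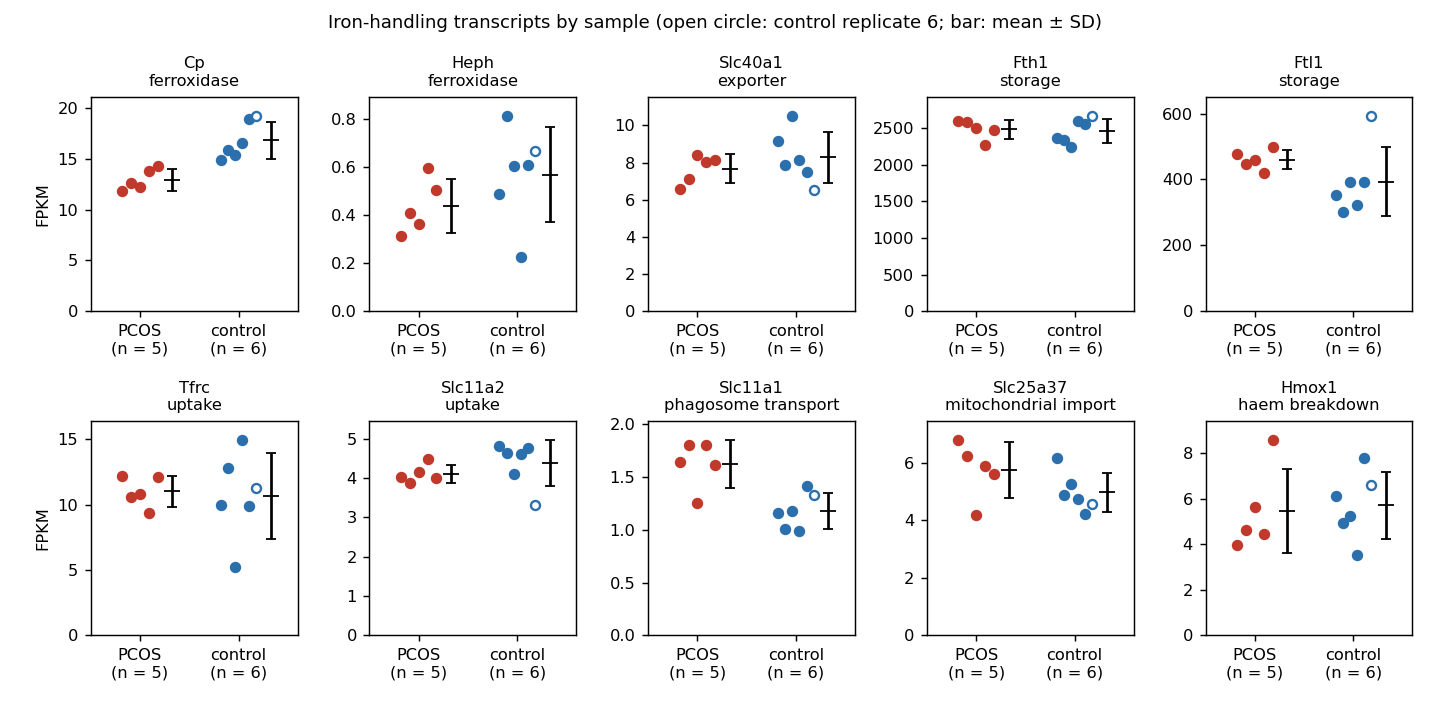
Level of each of the 10 iron-handling genes in FPKM (vertical axis, from 0), with 1 point per sample for PCOS (left, n = 5) and control hearts (right, n = 6), control replicate 6 as an open circle and the mean ± SD as a bar. The PCOS points of Cp, at 11.8 to 14.3 FPKM, lie below all control points, at 14.9 to 19.2 FPKM, while those of the other 9 genes overlap the controls.

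Of the chains of ferritin, the iron store, the heavy chain overlapped between the groups throughout, the light chain was higher in PCOS hearts than in all controls but control replicate 6, and their ratio overlapped. Fth1 encodes the heavy chain, which oxidizes iron as it enters the shell (NM_010239.2, chr19:9980600-9985111). Fth1 was at 2604.6, 2583.0, 2498.8, 2272.5 and 2482.6 FPKM in PCOS replicates 1 to 5, against 2365.7, 2338.1, 2244.5, 2603.1, 2554.0 and 2667.0 FPKM in control replicates 1 to 6. The values of the groups were interleaved. The mean was 2488.3 ± 131.5 FPKM in PCOS hearts (SD, n = 5) and 2462.1 ± 168.7 FPKM in control hearts (SD, n = 6), with a difference of 0.02 (SE 0.06), or 0.04 (SE 0.06) without control replicate 6. Over 18 alternative settings this small difference ran from −0.01, without control replicate 3, to 0.05. By mean FPKM, Fth1 ranked 22 of 21878 rows, and its reads made up 0.211% to 0.251% of each library.

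Ftl1 encodes the light chain, which helps the iron mineral form inside the shell (NM_010240.2, chr7:45457944-45459886). It was at 477.4, 446.5, 460.6, 420.1 and 499.0 FPKM in PCOS replicates 1 to 5, against 351.5, 301.2, 393.6, 323.4, 392.9 and 592.6 FPKM in control replicates 1 to 6. Control replicate 6 had the highest value of all samples, and the other 5 controls, at 301.2 to 393.6 FPKM, lay below every PCOS sample. The mean was 460.7 ± 30.0 FPKM in PCOS hearts (SD, n = 5) and 392.5 ± 104.7 FPKM in control hearts (SD, n = 6), a difference of 0.26 (SE 0.14). Without control replicate 6 the control mean was 352.5 ± 41.3 FPKM (SD, n = 5), the ratio 1.31 and the difference 0.39 (SE 0.08). For comparison, all PCOS samples were above all controls in 0.45% of all tested rows, and in 1.7% without control replicate 6. Ftl1 counted 3962 to 7385 reads per library. The summed macrophage and monocyte markers were also higher in each PCOS sample than in any control sample (282.9 to 393.4 FPKM in PCOS hearts, 133.0 to 257.8 FPKM in control hearts). Their part in the Ftl1 values was not tested.

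The ratio of Fth1 to Ftl1 shows both chains in 1 value that does not depend on the library total. It was 5.46, 5.79, 5.42, 5.41 and 4.97 in PCOS replicates 1 to 5, against 6.73, 7.76, 5.7, 8.05, 6.5 and 4.5 in control replicates 1 to 6. Control replicate 6 had the lowest ratio of all samples, and control replicate 3, at 5.7, lay just inside the PCOS range, so the groups overlapped with or without control replicate 6. The mean ratio was 5.41 ± 0.288 in PCOS hearts (SD, n = 5) and 6.54 ± 1.32 in control hearts (SD, n = 6), or 6.95 ± 0.959 in control hearts without replicate 6 (SD, n = 5). Both ferritin genes have many processed copies in the genome, and how the authors' counting split reads among copies is not given in the sources used here. Of the related rows, the Fthl17 family reached at most 0.162 FPKM and mitochondrial ferritin, Ftmt, was at 0 in every library.

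**Figure D2:**
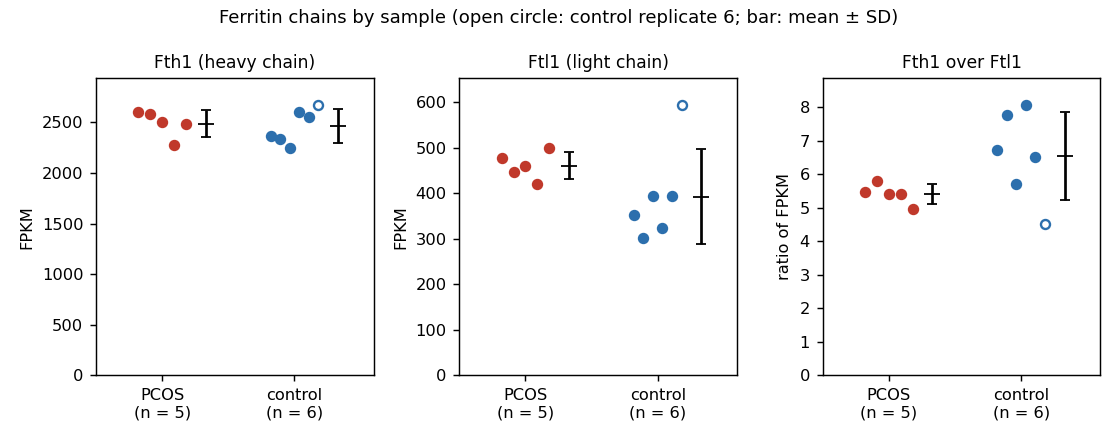
Fth1 and Ftl1 in FPKM and the ratio of Fth1 to Ftl1 (vertical axes, from 0) in PCOS (left, n = 5) and control hearts (right, n = 6), with 1 point per sample, control replicate 6 as an open circle and the mean ± SD as a bar. Fth1 overlaps between the groups, Ftl1 lies at 420.1 to 499.0 FPKM in PCOS hearts and at 301.2 to 393.6 FPKM in control replicates 1 to 5, and control replicate 6 stands at 592.6 FPKM.

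Both iron uptake genes overlapped between the groups. Tfrc encodes the transferrin receptor (NM_011638.4, chr16:32608896-32632794). It was at 12.2, 10.6, 10.8, 9.35 and 12.1 FPKM in PCOS replicates 1 to 5 and at 9.95, 12.8, 5.24, 14.9, 9.87 and 11.3 FPKM in control replicates 1 to 6. The PCOS samples lay within the span of the controls, which was set by control replicate 3 at the low end and control replicate 4 at the high end. The mean was 11 ± 1.18 FPKM in PCOS hearts (SD, n = 5) and 10.7 ± 3.26 FPKM in control hearts (SD, n = 6), a difference of 0.09 (SE 0.19), or 0.12 (SE 0.20) without control replicate 6. Without control replicate 3 the difference was −0.08, so its sign rests on that library. As a share of the mean, the SD was 10.7% in PCOS hearts and 30.6% in control hearts.

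Slc11a2 encodes DMT1, which carries iron out of the endosome after uptake through the transferrin receptor (XM_011245487.2, chr15:100387898-100424209, matched through another version of the accession). It was at 4.04, 3.88, 4.16, 4.49 and 4.01 FPKM in PCOS replicates 1 to 5, against 4.81, 4.65, 4.11, 4.62, 4.77 and 3.31 FPKM in control replicates 1 to 6. Control replicate 6 was the lowest sample, and 4 of the other 5 controls lay above every PCOS sample. The mean was 4.12 ± 0.23 FPKM in PCOS hearts (SD, n = 5) and 4.38 ± 0.58 FPKM in control hearts (SD, n = 6), a difference of −0.06 (SE 0.08). Without control replicate 6 the control mean was 4.59 ± 0.279 FPKM (SD, n = 5) and the difference −0.13 (SE 0.06).

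Slc11a1, the phagocyte member of the list, was higher in PCOS hearts at a low level. It encodes NRAMP1, which moves metal ions out of the phagosome of macrophages and neutrophils (XM_006495773.2, chr1:74375014-74386057). Slc11a1 was at 1.64, 1.8, 1.25, 1.8 and 1.61 FPKM in PCOS replicates 1 to 5, against 1.16, 1.01, 1.18, 0.985, 1.41 and 1.33 FPKM in control replicates 1 to 6. PCOS replicate 3, at 1.25 FPKM, lay below control replicates 5 and 6, and the other 4 PCOS samples lay above every control. The mean was 1.62 ± 0.226 FPKM in PCOS hearts (SD, n = 5) and 1.18 ± 0.169 FPKM in control hearts (SD, n = 6), a ratio of 1.37. The difference was 0.27 (SE 0.09), and 0.29 (SE 0.08) without control replicate 6. It was 0.43 with a pseudocount of 0.1 and 0.45 with limma's voom on recovered reads, since a pseudocount of 1 weighs heavily at this level. Slc11a1 stood just above the level filter and rested on 32 to 60 reads per library.

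Most macrophage and monocyte markers, but not all, had a higher mean in PCOS hearts. Of 13 markers 11 had a row analysed here, and 7 of the 11 had a higher mean in PCOS hearts (8 without control replicate 6), against 50.6% of all tested rows. None was at 0 in every library. Cd14, Fcgr1, Itgam and Cx3cr1 had a lower mean, with Cd14 at 1.78 to 2.39 FPKM in PCOS hearts and 1.43 to 3.2 FPKM in control hearts. Lyz2, the lysozyme of macrophages and the most abundant of them, was at 132.8 to 211.9 FPKM in PCOS hearts and 60.9 to 121.3 FPKM in control hearts. The part of macrophage number in the Slc11a1 values was not tested.

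**Figure D3:**
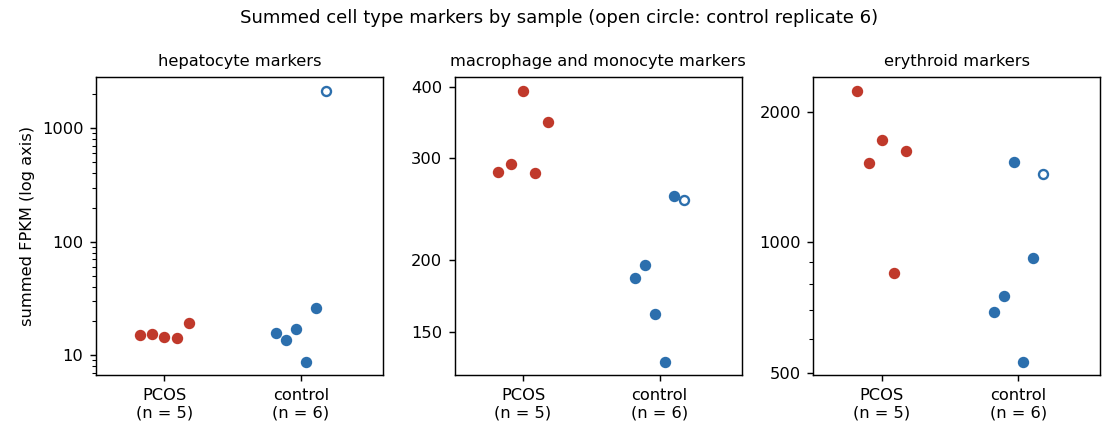
Summed FPKM of hepatocyte (16 genes), macrophage and monocyte (11 genes) and erythroid markers (8 genes) per sample on log axes, for PCOS (left, n = 5) and control hearts (right, n = 6), with control replicate 6 as an open circle. Hepatocyte markers reach 2143.8 FPKM in control replicate 6, macrophage markers lie at 282.9 to 393.4 FPKM in PCOS hearts against 133.0 to 257.8 FPKM in control hearts, and erythroid markers overlap.

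Slc25a37 encodes mitoferrin-1, which brings iron into mitochondria for haem and iron-sulphur clusters and is most abundant in red cell precursors (XM_006519461.1, chr14:69241848-69285544, matched through another version of the accession). It was at 6.78, 6.25, 4.2, 5.88 and 5.63 FPKM in PCOS replicates 1 to 5, against 6.16, 4.9, 5.25, 4.76, 4.22 and 4.56 FPKM in control replicates 1 to 6. PCOS replicate 3 was the lowest of all 11 samples, PCOS replicates 1 and 2 were the highest, and control replicate 1 lay above PCOS replicates 4 and 5, so the groups overlapped. The mean was 5.75 ± 0.966 FPKM in PCOS hearts (SD, n = 5) and 4.97 ± 0.674 FPKM in control hearts (SD, n = 6), a difference of 0.17 (SE 0.11), or 0.15 (SE 0.11) without control replicate 6. Erythroid markers, led by the globin Hbb-bs, had a higher mean in PCOS hearts in 8 of 8 genes. They summed to 851.1 to 2233.3 FPKM in PCOS hearts and 530.9 to 1531.3 FPKM in control hearts, with none at 0 in every library, and the part of residual blood in the Slc25a37 values was not tested. The ubiquitous mitoferrin-2, Slc25a28, was at 18.2 ± 1.07 FPKM in PCOS hearts and 17 ± 1.75 FPKM in control hearts, a difference of 0.10 (SE 0.08, limma adjusted p = 0.785), or 0.06 without control replicate 6, with an adjusted p of 0.653 to 1.0 over the alternatives.

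Hmox1 encodes haem oxygenase 1, which releases iron from haem and is induced by haem and oxidative stress (NM_010442.2, chr8:75093618-75100593). It was at 3.95, 4.64, 5.66, 4.45 and 8.56 FPKM in PCOS replicates 1 to 5 and at 6.12, 4.94, 5.24, 3.52, 7.81 and 6.62 FPKM in control replicates 1 to 6. PCOS replicate 5 was the highest and control replicate 4 the lowest of all samples, and the groups overlapped throughout. The mean was 5.45 ± 1.84 FPKM in PCOS hearts (SD, n = 5) and 5.71 ± 1.48 FPKM in control hearts (SD, n = 6), a difference of −0.07 (SE 0.18), or −0.02 (SE 0.19) without control replicate 6. Across 18 alternative settings the difference ran from −0.22 to 0.02, and it was positive, at 0.02, without PCOS replicate 1 and without control replicate 5.

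**Figure D4:**
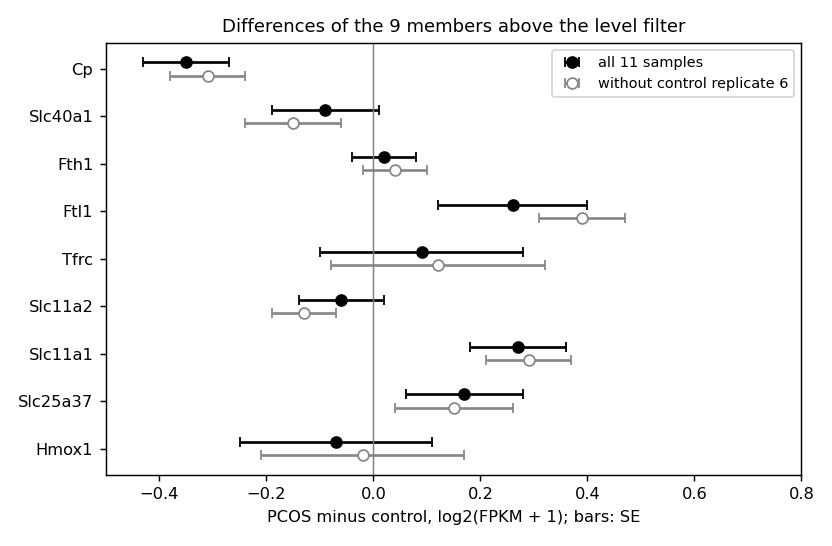
PCOS minus control difference in log2(FPKM + 1) on the horizontal axis for the 9 genes above the level filter, with all 11 samples (filled) and without control replicate 6 (open); bars show the SE. Cp lies at −0.35 and −0.31, Ftl1 at 0.26 and 0.39, and Slc11a1 at 0.27 and 0.29.

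Among the 9 genes in the fit, 5 had a positive and 4 a negative difference, while 50.6% of all tested rows were higher in PCOS hearts and their median difference was 0.00172. Ordered by mean FPKM over all 11 samples, ferritin stood far above the rest. Fth1 was 5.84 times Ftl1, and Ftl1 was 28.2 times Cp, with no overlap of the ranges over samples. Cp, Tfrc, Slc40a1, Hmox1, Slc25a37 and Slc11a2 followed in that order, and neighbours among these overlapped in their ranges over samples. Hmox1 exceeded Slc25a37 in only 5 of 11 samples, whereas Cp exceeded Tfrc in 10 of 11. Slc11a1 lay below every Slc11a2 value and Heph below every Slc11a1 value.

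Within the groups, the 9 genes showed no single common pattern of variation. After each group's mean was subtracted, Pearson's r of log2(FPKM + 1) over 10 samples without control replicate 6 ran from −0.69 to 0.64 over 36 pairs of genes, with a median of −0.05. These values are descriptive, since the points share library totals and depth. The pairs named next were picked as the most extreme of the 36 over only 10 samples. Fth1 varied with Tfrc (r = 0.64) and Ftl1 with Hmox1 (r = 0.59). Slc40a1 varied against Fth1 (r = −0.69) and against Tfrc (r = −0.67), and Ftl1 against Tfrc (r = −0.53). Control replicate 3 had the highest Slc40a1 (10.5 FPKM) and the lowest Fth1 (2244.5 FPKM) and Tfrc (5.24 FPKM) of all samples. The r values among Slc40a1, Fth1 and Tfrc may thus rest largely on that library, and r without it was not computed. Several pairs depended on the library with liver transcripts. With all 11 samples r was −0.86 for Ftl1 with Slc11a2, against −0.43 over 10. The sign turned for Slc40a1 with Slc11a2 (r = 0.40 over 11 samples, −0.28 over 10), for Slc40a1 with Ftl1 (r = −0.41 over 11, 0.25 over 10) and for Cp with Slc11a2 (r = −0.33 over 11, 0.32 over 10), among others.

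The comparison with Cp left out rows without a symbol and symbols of Gm and a number, with Rik or with -ps. Of the remaining genes in the fit, Desi2 (r = 0.91), Ttr (r = 0.91), Dennd4c (r = 0.89), Fv1 (r = 0.88) and Cpeb4 (r = 0.87) had the pattern most like that of Cp over the same 10 samples. They were picked as the highest r among these genes over only 10 samples, so their r is a description. With control replicate 6 included, r was 0.52 for Desi2, 0.76 for Ttr, 0.00 for Dennd4c, 0.09 for Fv1 and 0.28 for Cpeb4. Ttr encodes transthyretin, a plasma protein made mainly by liver. It was at 0.485 to 1.55 FPKM in PCOS hearts and 0.439 to 5.52 FPKM in control replicates 1 to 5, with the highest value in control replicate 5, which also had the highest Cp among them.

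Other genes of iron, haem and copper handling were placed in 7 lists of 100 genes in all, of which 94 had a row and 81 passed the level filter. In limma with Benjamini-Hochberg adjustment over all 10891 tested rows, 0 of the 81 passed an adjusted p of 0.05, and voom on recovered reads also called 0. Over all rows the test called 15 (0.138%), all of them higher in PCOS hearts, and 32 (0.294%) without control replicate 6. At an unadjusted p under 0.05 there were 3 higher and 7 lower among the 81 genes, against 727 (6.68%) of all tested rows. The median difference of the 81 genes was 0.0125, with 42 higher and 39 lower. Without control replicate 6 it was 0.0442, with 49 higher and 32 lower. Both pairs of counts include Hamp, Hamp2, Hpx and Hp, which passed the level filter only through that library. Adjusted p-values of single genes moved widely with the settings, and those of most named genes were lower without control replicate 6.

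Genes that sense iron and turn over ferritin lay below 0 in 7 of 7 tested members, with a median difference of −0.125, and in 6 of 7 without control replicate 6. Of all tested rows, 49.4% were lower. Skp1 (−0.00853), Pcbp2 (−0.0451) and Pcbp1 (−0.0602) were close to 0, while Aco1 (−0.125) and the genes named next lay further below it. Ncoa4, the receptor that carries ferritin to the lysosome for breakdown, was at 3.25, 3.98, 4.08, 5.49 and 4.37 FPKM in PCOS replicates 1 to 5, against 6.78, 6.06, 5.6, 6.36, 7.76 and 4.29 FPKM in control replicates 1 to 6. Only control replicate 6 lay within the PCOS range. Without it all PCOS samples were below all controls, as in 1.85% of all tested rows. Ncoa4 averaged 4.23 ± 0.815 FPKM in PCOS hearts (SD, n = 5) and 6.14 ± 1.17 FPKM in control hearts (SD, n = 6), a difference of −0.45 (SE 0.13, limma adjusted p = 0.738). Without control replicate 6 it was −0.53 (SE 0.11, limma adjusted p = 0.0827), and over all alternatives the adjusted p ran from 0.0826 to 1.0. Ireb2, one of the iron regulatory proteins, differed by −0.15 (SE 0.07, limma adjusted p = 0.738). Fbxl5, which marks the iron regulatory proteins for breakdown when iron is plentiful, differed by −0.17 (SE 0.09, limma adjusted p = 0.742). With that library left out, Ireb2 differed by −0.17 and Fbxl5 by −0.19, with a limma adjusted p of 0.208 to 1.0 and of 0.312 to 1.0 over the alternatives.

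Iron uptake and transport genes were divided, with 3 higher and 5 lower of 8 tested and a median of −0.0259. Without control replicate 6, 4 were higher and 4 lower, and the median was 0.0201. Steap3, the endosomal reductase that prepares iron for DMT1, was at 12 ± 1.25 FPKM in PCOS hearts and 13.6 ± 1.15 FPKM in control hearts (difference −0.17, SE 0.08, limma adjusted p = 0.738). Slc39a14, a transporter of iron that is not bound to transferrin, was at 6.19 ± 0.461 FPKM in PCOS hearts and 7.33 ± 1.15 FPKM in control hearts (difference −0.20, SE 0.09, limma adjusted p = 0.738). Steap3 differed by −0.21 and Slc39a14 by −0.24 without control replicate 6, with a limma adjusted p of 0.156 to 1.0 and of 0.193 to 1.0 over the alternatives. Transferrin itself, Trf, was at 8.39 to 11.9 FPKM in PCOS hearts, 3.73 to 12.5 FPKM in control replicates 1 to 5 and 146.3 FPKM in control replicate 6, so its difference of −0.371 became 0.314 without that library.

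The hepcidin axis, which sets how much ferroportin stays at the cell surface, had 2 higher and 4 lower of 6 tested genes and a median of −0.137, or 3 of each and −0.0441 without control replicate 6. Hamp, which encodes hepcidin, was at 0 to 0.187 FPKM in PCOS hearts, 0 to 0.194 FPKM in control replicates 1 to 5 and 47.5 FPKM in control replicate 6. Its mouse paralog Hamp2 showed the same pattern, at most 0.719 FPKM outside control replicate 6 and 21.9 FPKM in it. The sequences of the pair are nearly identical, so the split of reads between them is uncertain. Both passed the level filter only through that library and are counted among the 6 genes with and without it. Bmp6, a signal that induces hepcidin in liver, was at 12 ± 2.41 FPKM in PCOS hearts and 13.7 ± 3.16 FPKM in control hearts (difference −0.17, SE 0.16, limma adjusted p = 0.813), and without control replicate 6 it differed by −0.12 (adjusted p of 0.705 to 1.0 over the alternatives).

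Genes of haem synthesis, transport and breakdown were higher in 12 and lower in 8 of 20, with a median of 0.0685. Without control replicate 6, 14 were higher and 6 lower, with a median of 0.0701. Slc48a1, which carries haem out of lysosomes, was at 31.5, 32.8, 34.0, 31.1 and 30.2 FPKM in PCOS replicates 1 to 5, against 28.5, 28.8, 30.0, 29.3, 27.2 and 27.1 FPKM in control replicates 1 to 6. Every PCOS sample lay above every control, by a narrow margin (difference 0.16, SE 0.05, limma adjusted p = 0.738). Of all tested rows, 0.45% had every PCOS sample above every control. Alas2, the first enzyme of haem synthesis in red cell precursors, was at 12.9 ± 3.04 FPKM in PCOS hearts and 8.41 ± 3.16 FPKM in control hearts (difference 0.59, SE 0.22, limma adjusted p = 0.738), and it also belongs to the erythroid markers. Urod, a later enzyme of the same pathway, was at 61.9 ± 3.6 FPKM in PCOS hearts and 55.9 ± 4.26 FPKM in control hearts (difference 0.15, SE 0.06, limma adjusted p = 0.738). The differences were 0.14 for Slc48a1, 0.69 for Alas2 and 0.18 for Urod without control replicate 6. Over the alternatives their limma adjusted p started at 0.157 for Slc48a1, 0.114 for Alas2 and 0.134 for Urod and reached 1.0 for each. The plasma scavengers of haem and haemoglobin, Hpx and Hp, differed by −0.973 and −0.842. They stood at 46.5 and 53.4 FPKM in control replicate 6 and at no more than 1.08 FPKM elsewhere. Both passed the level filter only through that library and are counted among the 20 genes. Without it they differed by −0.067 and 0.0436.

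Copper handling, on which Cp depends for its copper, was higher in 10 of 13 tested genes, against 50.6% of all tested rows. The median was 0.12, or 0.155 without control replicate 6. Slc31a1, the copper importer CTR1, went the other way. It was at 8.34, 8.64, 9.77, 9.19 and 9.5 FPKM in PCOS replicates 1 to 5, against 10.6, 10.7, 9.87, 11, 10.6 and 10.2 FPKM in control replicates 1 to 6. All PCOS samples, at up to 9.77 FPKM, were below all controls, at 9.87 FPKM or more, by a narrow margin (difference −0.19, SE 0.06, limma adjusted p = 0.738). Of all tested rows, 0.248% had all PCOS samples below all controls, and Slc31a1 was itself named for its small p. Sco2, a copper chaperone of cytochrome oxidase, was at 2.84 ± 0.465 FPKM in PCOS hearts and 2.21 ± 0.711 FPKM in control hearts (difference 0.27, SE 0.13, limma adjusted p = 0.738). Sod1, the copper and zinc superoxide dismutase, was at 604.1 ± 43.3 FPKM in PCOS hearts and 543.4 ± 75.2 FPKM in control hearts (difference 0.16, SE 0.09, limma adjusted p = 0.742). For Sco2 and Sod1 control replicate 6 was the highest sample, at 3.6 and 676.9 FPKM. Without it Sco2 differed by 0.38, Sod1 by 0.23 and Slc31a1 by −0.20. Every PCOS value of Sod1 was then above the other controls, as in 1.7% of all tested rows. Over the alternatives the limma adjusted p ran from 0.1 to 1.0 for Sco2, from 0.133 to 1.0 for Sod1 and from 0.138 to 1.0 for Slc31a1.

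Iron-sulphur cluster assembly genes were higher in 13 and lower in 9 of 22, with a median of 0.0165 that was 0.0762 without control replicate 6. Nfu1, which hands clusters to mitochondrial enzymes, was at 50.2 ± 3.06 FPKM in PCOS hearts and 44.8 ± 5.59 FPKM in control hearts (difference 0.17, SE 0.08, limma adjusted p = 0.738). Fdx1, a mitochondrial ferredoxin, differed by 0.12 (SE 0.06, limma adjusted p = 0.742), and Ciao1, of the cytosolic assembly machinery, by 0.11 (SE 0.06, limma adjusted p = 0.752). Nfu1 differed by 0.22 without control replicate 6, with every PCOS value above the other controls, as in 1.7% of all tested rows. Fdx1 and Ciao1 each differed by 0.14 without it. The limma adjusted p ran over the alternatives from 0.118 to 1.0 for Nfu1, from 0.231 to 1.0 for Fdx1 and from 0.228 to 1.0 for Ciao1. Genes of ferroptosis, a cell death driven by iron and lipid peroxides, were higher in 2 and lower in 3 of 5 tested. Both subunits of the enzyme that starts glutathione synthesis were among the lower ones. Gclm, the modifier subunit, was at 8.38 ± 0.466 FPKM in PCOS hearts and 10.1 ± 1.16 FPKM in control hearts (difference −0.24, SE 0.08, limma adjusted p = 0.738). Gclc, the catalytic subunit, differed by −0.18 (SE 0.10, limma adjusted p = 0.742). Aifm2, which protects membranes from lipid peroxides, differed by 0.05 (SE 0.06, limma adjusted p = 0.834). Without control replicate 6 the differences were −0.25 for Gclm, −0.16 for Gclc and 0.02 for Aifm2, with limma adjusted p over the alternatives from 0.147, 0.412 and 0.764, in that order, up to 1.0.

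**Figure D5:**
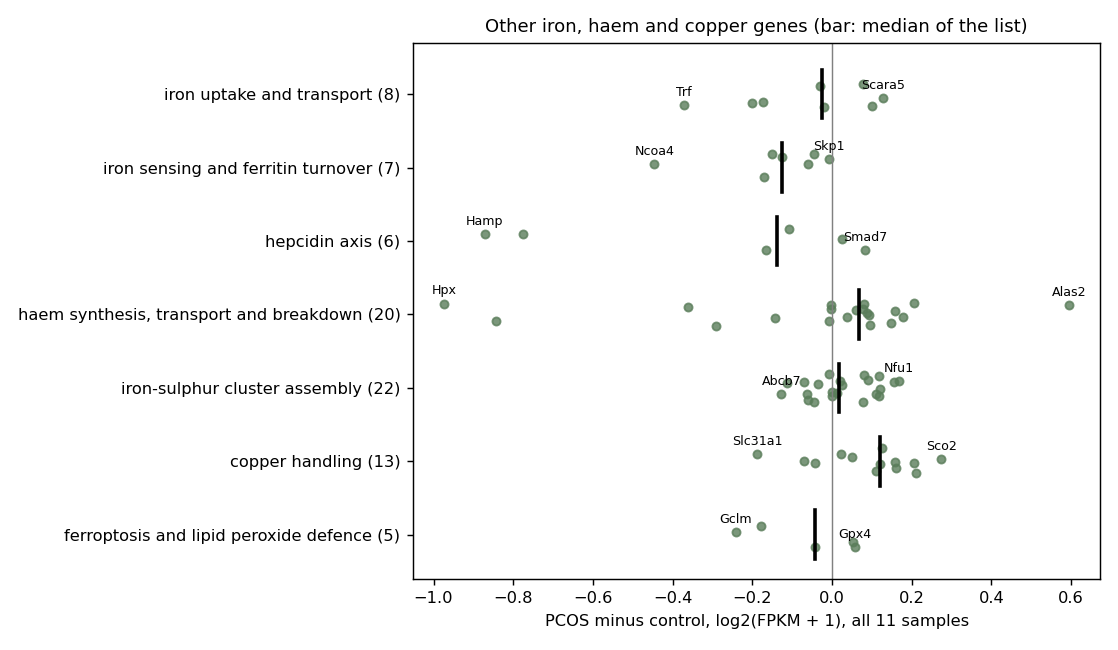
PCOS minus control difference in log2(FPKM + 1) on the horizontal axis for the 81 tested genes of 7 lists, with 1 point per gene, the list's median as a bar and the lowest and highest gene of each list named. Genes of iron sensing and ferritin turnover have a median of −0.125 and copper handling genes 0.12, while Hamp, at −0.87, and Hpx, at −0.973, lie at 0.0459 and −0.067 without control replicate 6.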

How the data were processed

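RNA was measured in 5 PCOS and 6 control heart samples of female mice. Per the labels' protocols, a mirVana kit was used for RNA and a TruSeq stranded kit for the mRNA libraries. Tools named in the submitters' processing notes are HISAT2 2.2.1, HTSeq 0.13.5 and DESeq2 1.18.1, with FastQC 0.11.9, Trimmomatic 0.38 and R 3.4.1, on build mm10, and neither settings nor the strand counted are given. The authors deposited FPKM per gene, which were used as they stand. Symbols and positions came from a RefSeq table of GRCm38, which matched 87.2% of 21878 rows. FPKM steps gave whole reads (within 0.005) in all 15939 rows above 0 in at least 3 samples, summing to 11866474 to 14346772 per library. Some genes of the lists are not analysed here.

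Groups and replicate numbers came from the titles. Differences were tested with lmFit and eBayes (with trend) of limma 3.58.1, run in R 4.3.3, on log2(FPKM + 1), over the 10891 rows whose mean was at least 1 FPKM, with Benjamini-Hochberg adjustment over them. It was checked on simulated data. The members, lists and marker lists were chosen with earlier results of these data known. Text names all members, the 5 genes most like Cp and the most abundant marker of the lists used. It also names the 3 tested genes of each wider list with the smallest p. Trf, Hpx, Hp and Hephl1 were added after their values were seen. Ahsg, Apoa1, Apoa2, Cd14, Fcgr1, Itgam, Cx3cr1, Aco1, Skp1, Pcbp1, Pcbp2, Ftmt and the Fthl17 family are also named outside these rules. Alternatives were a pseudocount of 0.1, a filter at 5 FPKM or none, median-ratio scaling, the replicate number as a block, leaving out each sample, leaving out control libraries 2 and 5, and voom on recovered reads.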

Additional observations from a re-analysis of the deposited data

Results flagged for a closer look

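Ftl1 in control replicate 6 stood far from the other controls. It was at 592.6 FPKM, against 301.2 to 393.6 FPKM in control replicates 1 to 5, a gap that passed Dixon's 95% critical value for 6 samples. Of 20 groups of values tested in this way, 1 for each gene and group, this was the only one past that value, and chance gives about 1 in 20. The same library held 2143.8 FPKM of summed hepatocyte markers, and the part of liver transcripts in its Ftl1 value was not tested.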

How the results depend on the processing

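Over all tested rows the count called was 15, and it was 5 with the filter at 5 FPKM, 10 without control libraries 2 and 5, 12 with voom, and 14 to 16 with a pseudocount of 0.1, no filter or median-ratio scaling. Leaving out 1 sample at a time gave 10 to 32, the highest without control replicate 6. With the replicate number as a block it was 25. That block leaves control replicate 6 with no partner, and the correlations of deviations of same-numbered samples (−0.12 to 0.25) do not show that numbers pair samples. The wider lists had 0 called genes in all 18 alternatives. Cp ran from −0.38 to −0.31, Slc40a1 from −0.15 to −0.03, Ftl1 from 0.19 to 0.39, Slc11a2 from −0.13 to −0.02, Slc11a1 from 0.24 to 0.45 and Slc25a37 from 0.12 to 0.26, each with 1 sign. Fth1 (−0.01 to 0.05), Tfrc (−0.08 to 0.19) and Hmox1 (−0.22 to 0.02) changed sign in at least 1 setting. The filter at 5 dropped Slc11a2 and Slc11a1. Heph, with 17 to 67 reads, and Slc11a1, with 32 to 60, are limited most by depth. The cause of these shifts was not tested.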
